A study of Sus scrofa with 22 samples.

Results

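CXCL2, IL1B and SELP are genes that help to bring neutrophils from the blood into a tissue, and their RNA levels are described here in the small intestine of piglets given chemotherapy. The members were chosen by name: all array probes whose RefSeq accession belongs to the pig symbol CXCL2, IL1B or SELP, 3 of the 24760 genes and identifiers tested and of the 35866 on the array. CXCL2 has 2 probes on the array (A_72_P146411, the brighter, and A_72_P732383), IL1B has 1 (A_72_P441479) and SELP has 1 (A_72_P232527). The genes were picked with their values in the 4 groups in view, so their levels and differences are a description and carry no test.

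The 22 piglets, 3 days old per the study's design text, were SPF crosses of Large White and Danish Landrace and came from 2 separate chemotherapy experiments. In the first, 6 piglets received a single intravenous dose of doxorubicin (DOX), a topoisomerase II inhibitor, with 6 untreated piglets beside them. The other experiment gave busulfan plus cyclophosphamide (BUCY), alkylating drugs used before bone marrow transplantation, to 5 piglets and kept 5 untreated. Piglets had suckled the sow from birth and were fitted, under anaesthesia, with a stomach tube and a catheter in the jugular vein. The sources used here do not give doses, the time of sampling or the gut segment, nor whether the age refers to treatment or to sampling.

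CXCL2, also known as MIP-2 or GRO-beta, is a chemokine that acts through the receptor CXCR2 on neutrophils. IL1B is the cytokine interleukin-1 beta, made as an inactive precursor that caspase-1 cleaves; released, it activates NF-kB in epithelium, stroma and endothelium, and NF-kB switches on CXC chemokines and adhesion molecules. SELP is P-selectin, an adhesion molecule held in the granules of platelets and endothelial cells, which reaches the surface on activation and slows passing leukocytes by binding PSGL-1. In the gut these signals belong to the acute response to epithelial damage and to bacteria.

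Each array gave the ratio of a piglet's RNA (Cy5) to a pool of all samples (Cy3), so a log2 ratio of 0 means the level of the pool and the values of different genes cannot be ranked against each other. Between 59.67% and 72.49% of probes per array were well above background in Cy5. The lowest share was in BUCY treated replicate 3. Its median Cy5 signal was also the lowest, 88.5 against 104 to 211 on the other arrays. Whether this dimness shaped its ratios was not tested. Markers of the labelled tissue were present: all 10 epithelial marker genes tested, among them FABP1, FABP2 and APOA4, were well above background on 22 of 22 arrays. BUCY treated replicates 2 and 3 stood apart, with values of 55.3 and 67.5 on the second principal component (25.7% of the variance), against at most 28.5 on any other array. The mean log2 ratio of the 10 epithelial markers was -1.06 and -1.72 in these piglets and between -0.59 and 0.43 in the other 20. In whole tissue, fewer cells of a type and less RNA per cell cannot be told apart. BUCY values and calls of named genes that rest on these piglets are given with and without them.

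CXCL2 had its highest mean log2 ratios in the treated piglets of both experiments and its lowest in the untreated piglets of the BUCY experiment. The high BUCY mean rested on treated replicates 2 and 3, without which it was -0.32 ± 0.86 (SD, n = 3), below that of the untreated DOX piglets. In the 5 BUCY treated piglets the log2 ratios were 0.24, 1.84, 2.34, -1.31 and 0.10 for replicates 1 to 5, a mean of 0.64 ± 1.46 (SD). The untreated piglets of that experiment lay at -1.33, -1.69, -1.50, -1.28 and -0.83, a mean of -1.33 ± 0.32 (SD). Replicates 1, 2, 3 and 5 lay above every untreated piglet and replicate 4 lay within the untreated range, so the spread after BUCY ran from the untreated level to the highest ratios on any array. The difference was 1.97 on the log2 scale (SE 0.44, 3.92-fold). All SEs of differences given here rest on a single spread per gene, shared by the 4 groups, although the groups spread unequally. For CXCL2 this residual SD was 0.75, against 1.46 in BUCY treated and 0.25 in DOX treated piglets. Its SE is thus too small for the spread of the BUCY treated piglets and too large for that of the DOX treated ones. In the DOX experiment the 6 treated piglets ranged from 0.35 over a median of 0.64 to 0.95 (mean 0.66 ± 0.25, SD), and the 6 untreated from -0.62 over -0.04 to 0.44 (mean -0.07 ± 0.42, SD). All 6 treated piglets were above the untreated mean and 4 of 6 above every untreated piglet. The log2 difference was 0.72 (SE 0.40, 1.65-fold).

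Both CXCL2 probes gave similar orders of piglets, with a Pearson r of 0.99 and a Spearman rho of 0.98 over the 22 arrays. The dimmer probe gave smaller log2 differences, 1.51 for BUCY and 0.48 for DOX. It was well above background on 4 of 5 arrays of the untreated BUCY piglets and on all arrays of the other groups, whereas the brighter probe was above background on all 22. The raw Cy5 signal of the brighter probe was 110.5 to 187 in untreated BUCY piglets, over local backgrounds of 58 to 93.5, and 161 to 598 in untreated DOX piglets.

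IL1B was the member whose BUCY groups did not overlap. The BUCY treated piglets had log2 ratios of 0.67, 2.33, 1.08, -0.44 and 0.18 for replicates 1 to 5 (mean 0.76 ± 1.04, SD). Their untreated piglets had -0.53, -0.59, -0.64, -0.80 and -0.54 (mean -0.62 ± 0.11, SD). All 5 treated piglets were above the highest untreated one, replicate 4 by the smallest margin and replicate 2 by the largest; 3.22% of all tested genes were higher and 3.34% lower after BUCY without overlap. The difference was 1.38 on the log2 scale (SE 0.34, 2.61-fold). The raw Cy5 signal of the IL1B probe was 105 to 239 in untreated BUCY piglets, over local backgrounds of 57 to 84.5. In BUCY treated replicates 1 to 5 it was 484, 806, 225.5, 155 and 153. Replicates 3, 4 and 5 thus lay within the untreated range of raw signal, which is not corrected for the brightness of the array. After DOX the treated piglets ranged from -0.47 over a median of 0.04 to 0.89 (mean 0.05 ± 0.50, SD) and the untreated from -0.49 over -0.24 to 0.22 (mean -0.20 ± 0.24, SD). The DOX groups overlapped, with 1 of 6 treated piglets above every untreated one, and the log2 difference of 0.25 (SE 0.31) was smaller than the SD of the treated group. No member separated its DOX groups without overlap, against 1.22% of genes higher and 1.39% lower in that way.

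The pig has a second interleukin-1 beta gene, IL1B2, listed in RefSeq with IL1B as a synonym. The array carries 3 probes for it, of which the brightest was well above background on 22 of 22 arrays. That probe was higher after BUCY (log2 difference 0.82, SE 0.26, limma adjusted p = 0.0309) and had a log2 difference of 0.18 (SE 0.23, adjusted p = 0.764) after DOX. The BUCY call was lost without treated replicates 2 and 3 (0.23, adjusted p = 0.32), and also without any single array among treated replicates 2 and 3 and untreated replicates 1, 3 and 5 (adjusted p up to 0.0993). The other 2 probes were well above background on at most 1 array of a group. Whether the IL1B and IL1B2 probes share signal was not tested.

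The SELP difference was positive for BUCY and negative for DOX. The BUCY treated piglets had log2 ratios of 0.76, 0.52, 1.48, -0.08 and 0.45 for replicates 1 to 5 (mean 0.63 ± 0.57, SD), and the untreated -0.39, -0.15, -0.17, -0.75 and 0.52 (mean -0.19 ± 0.46, SD). All 5 treated piglets lay above the untreated mean and 3 of 5 above every untreated piglet; untreated replicate 5, at 0.52, reached into the treated range. The log2 difference was 0.81 (SE 0.22, 1.76-fold). The raw Cy5 signal of SELP had a median of 734 (mean 985.7) in BUCY treated and 998 (mean 935) in untreated BUCY piglets. The 6 DOX treated piglets kept within -0.52 to -0.24 with a median of -0.40 (mean -0.39 ± 0.13, SD). Their untreated piglets ranged from -0.40 over 0.03 to 0.19 (mean -0.07 ± 0.25, SD). All 6 treated piglets were below the untreated mean and 3 of 6 below every untreated piglet, a log2 difference of -0.32 (SE 0.20).

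**Figure D1:**
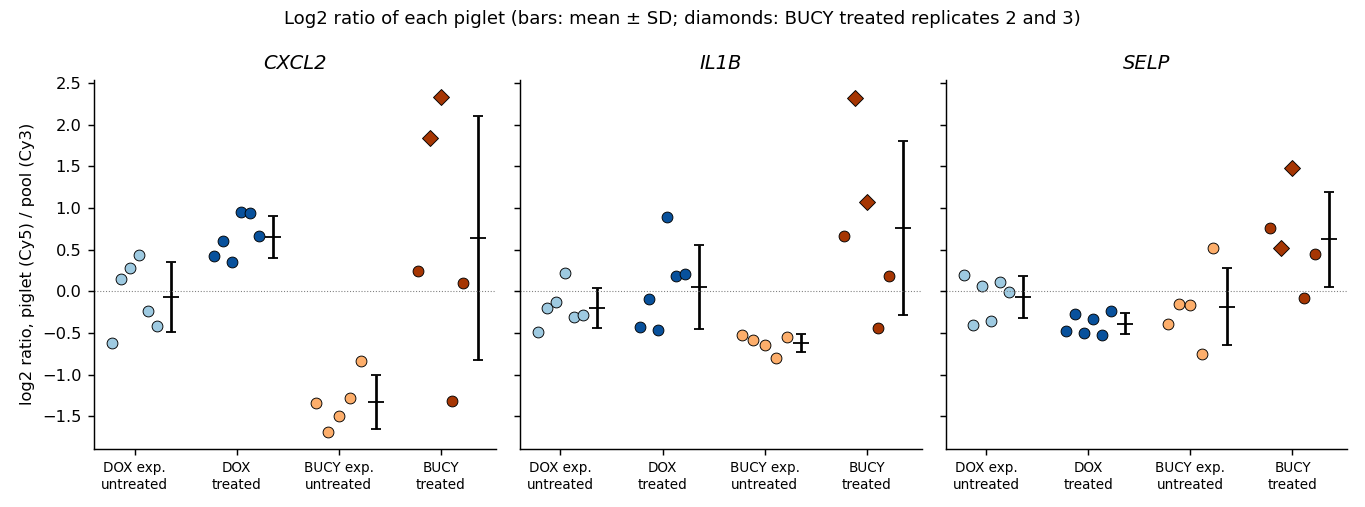
Log2 ratio of each piglet's RNA to the pool (y axis) for CXCL2 (brighter probe), IL1B and SELP in the 4 groups (x axis); points are piglets, bars the mean ± SD, and diamonds BUCY treated replicates 2 and 3. The BUCY treated points spread from the untreated level upwards for CXCL2 and IL1B, and the 6 DOX treated points of SELP lie close together between -0.52 and -0.24.

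The order of the 4 group means differed between the members. For CXCL2 it ran from DOX treated (0.66) over BUCY treated (0.64) and untreated DOX (-0.07) to untreated BUCY (-1.33); the first 3 neighbours differed by less than the SD of the BUCY treated group, and without replicates 2 and 3 the BUCY treated mean (-0.32) lay between the untreated groups. For IL1B it ran from BUCY treated (0.76) over DOX treated (0.05) and untreated DOX (-0.20) to untreated BUCY (-0.62). For SELP it ran from BUCY treated (0.63) over untreated DOX (-0.07) and untreated BUCY (-0.19) to DOX treated (-0.39). The untreated groups of SELP differed by less than their SDs. Without replicates 2 and 3 the BUCY treated mean was 0.14 for IL1B and 0.38 for SELP, still first in both orders.

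The untreated piglets of the experiments were not at the same level. CXCL2 was lower in untreated BUCY than in untreated DOX piglets by a log2 difference of -1.26 (SE 0.42) and IL1B by -0.42 (SE 0.32), in both cases with all 5 below all 6; 9.02% of all tested genes were lower and 8.91% higher without overlap in this comparison. For SELP the difference was -0.12 (SE 0.21) and the groups overlapped. Experiment and untreated group cannot be told apart. The BUCY difference minus the DOX difference was 1.25 (SE 0.59) for CXCL2, 1.14 (SE 0.46) for IL1B and 1.14 (SE 0.30) for SELP. Each experiment has its own untreated piglets.

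Much of the size of the BUCY difference of CXCL2 and IL1B lay in replicates 2 and 3. Without both, the log2 difference was 1.01 for CXCL2 and 0.76 for IL1B, and the BUCY minus DOX difference was 0.28 and 0.51. SELP moved less, to 0.56 for BUCY and 0.89 for BUCY minus DOX. The direction of the BUCY difference was kept in each of the 3 slides that held both BUCY groups for CXCL2 (0.94 to 1.80) and IL1B (0.73 to 1.31). The CXCL2 value of 1.80 rested on treated replicate 3 (2.34). Treated replicate 4 on that slide (-1.31) was no higher than its untreated piglet (-1.28). For SELP the within-slide values were 0.92, 1.45 and -0.07. Within the 3 slides holding both DOX groups the values were 0.32 to 0.66 for CXCL2, -0.08 to 0.20 for IL1B and -0.38 to -0.005 for SELP. These slides held 1 to 3 piglets a group. Within scan days the BUCY difference was 0.94 to 2.55 for CXCL2, 0.73 to 2.08 for IL1B and -0.07 to 1.45 for SELP; the DOX difference was 0.58 and 0.93 for CXCL2, 0.01 and 0.55 for IL1B and -0.33 and -0.28 for SELP.

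The way of normalising also set the size of the differences. Centring each array on its median in place of the intensity-dependent loess curve brought the BUCY difference of SELP down to 0.37, and gave 1.65 for CXCL2 and 1.13 for IL1B. Subtraction of the local background gave 2.73 for CXCL2 and 1.96 for IL1B. In the value table deposited by the authors, the BUCY differences were 2.05, 1.47 and 0.89 for CXCL2, IL1B and SELP, and the DOX differences 0.76, 0.25 and -0.32. With the slide as a block the DOX difference of IL1B was 0.03. The sign of the DOX and BUCY differences of the members was the same in every setting run over both groups of an experiment, though many of these settings could not change it. Within single slides IL1B for DOX and SELP for BUCY changed sign, as given above.

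**Figure D2:**
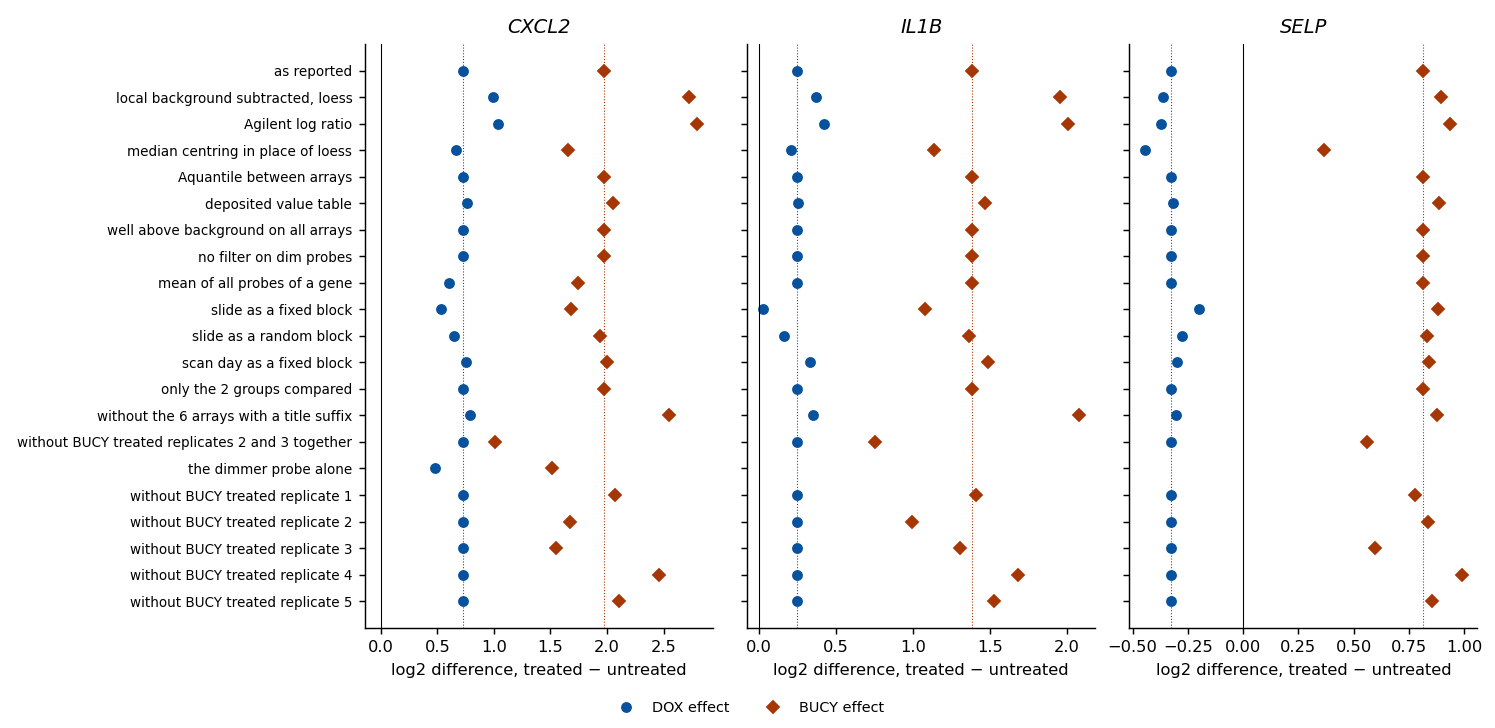
Log2 difference, treated minus untreated (x axis), of CXCL2, IL1B and SELP under each processing setting and without each BUCY treated piglet (y axis); circles are the DOX and diamonds the BUCY difference, and dotted lines mark the reported values. All points of CXCL2 and IL1B lie above 0, and SELP lies below 0 for DOX and above 0 for BUCY, with 0.37 under median centring. Leaving out a BUCY treated piglet cannot move the DOX points.

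CXCL2 and IL1B went up and down together across piglets more than either did with SELP. Over the 22 arrays, which share the pool channel, Pearson's r was 0.80 for CXCL2 and IL1B, 0.39 for CXCL2 and SELP and 0.51 for IL1B and SELP. Without BUCY treated replicates 2 and 3 these became 0.75, -0.08 and 0.24. Of deviations from the group means, r was 0.79, 0.54 and 0.29. These correlations are descriptions over piglets of 4 groups.

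**Figure D3:**
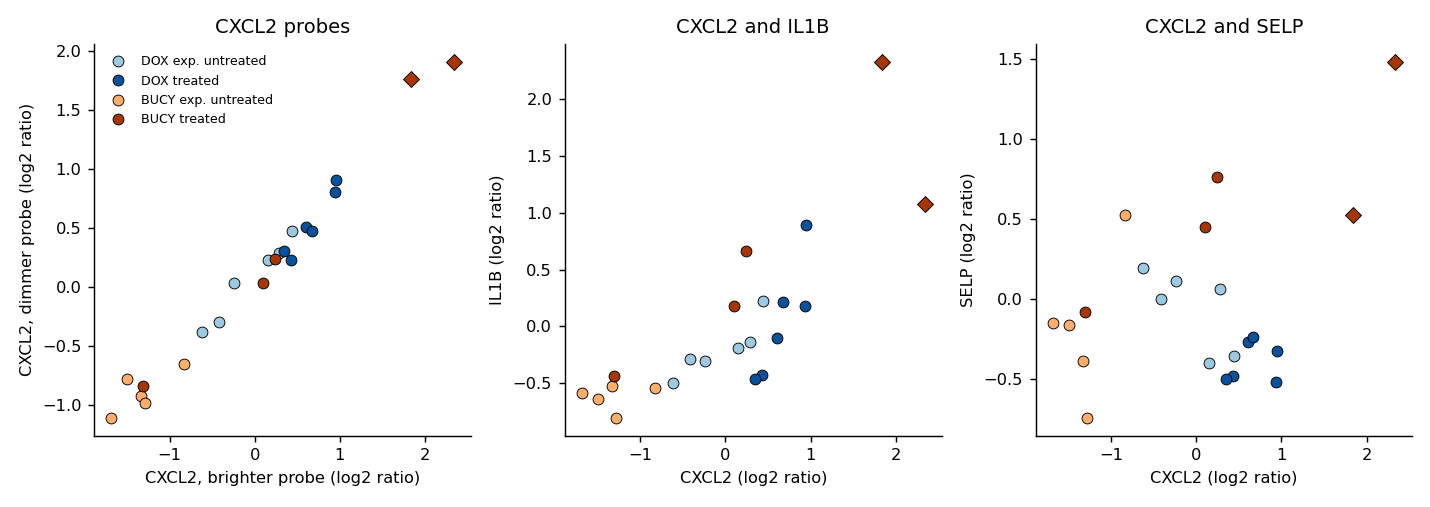
Log2 ratios of the brighter CXCL2 probe (x axis) against the dimmer CXCL2 probe, IL1B and SELP (y axes); each point is a piglet, coloured by group, with BUCY treated replicates 2 and 3 as diamonds. The probes of CXCL2 lie along a line (r = 0.99), IL1B rises with CXCL2 (r = 0.80) and SELP shows a wide scatter (r = 0.39).

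To set the members beside the rest of the recruitment pathway, 115 tested genes of 12 lists were read from the same fit, the members left out. After DOX, 2 of the 115 were higher and 2 lower at a limma adjusted p under 0.05 (0.848% of all genes were called, 0.368% higher and 0.481% lower); after BUCY, 12 were higher and 12 lower (17.3% of all genes, 8.24% higher and 9.04% lower). The median log2 difference of the list genes was 0.002 for DOX and 0.03 for BUCY, beside 0.008 and -0.001 over all genes. Under median centring the BUCY split became 2 higher and 17 lower, with the median of all genes at -0.13. Without BUCY treated replicates 2 and 3 it was 4 and 2, and without replicate 2 alone 5 and 6. A fit of the BUCY groups alone called 1 higher and 3 lower.

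Among the neutrophil-attracting CXC chemokines besides CXCL2, CXCL8 and AMCF-II could be tested and neither passed the threshold for either drug, nor an unadjusted p of 0.05. Both are neighbours of CXCL2 in the RefSeq annotation. CXCL8, the interleukin-8 chemokine, had log2 ratios of -0.003 ± 1.04 (SD, n = 5) after BUCY and -0.57 ± 0.52 (SD, n = 5) without, a difference of 0.56 (SE 0.34, adjusted p = 0.258). Without BUCY treated replicate 4 it was 0.92 and called (adjusted p = 0.0246), and without replicates 2 and 3 it was 0.06 (adjusted p = 0.968). AMCF-II, a pig chemokine that attracts neutrophils, had a difference of 0.57 (SE 0.44, adjusted p = 0.395) for BUCY and 0.70 (SE 0.41, adjusted p = 0.467) for DOX. Like CXCL2, both were lower in untreated BUCY than in untreated DOX piglets: AMCF-II by a log2 difference of -1.44 (SE 0.42, adjusted p = 0.0158) and CXCL8 by -0.92 (SE 0.32, adjusted p = 0.0402; lost without any of DOX untreated replicates 1 to 5 or BUCY untreated replicates 3 to 5, adjusted p up to 0.122), where 25.2% of all genes were called, 13% higher and 12.2% lower.

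Of the 3 receptors tested, ACKR1 was higher after BUCY, where 8.24% of all genes were higher. ACKR1, the Duffy antigen receptor, sits on the endothelium of venules, binds CXC and CC chemokines and does not signal as other chemokine receptors do; its log2 ratio was 1.12 ± 0.69 (SD, n = 5) after BUCY and -0.03 ± 0.58 (SD, n = 5) without, a difference of 1.15 (SE 0.29, adjusted p = 0.0107). The difference was 1.06 (adjusted p = 0.0939) without replicates 2 and 3 and 0.74 (adjusted p = 0.0964) under median centring. C5AR1, the receptor of complement C5a on neutrophils and macrophages, had the smallest p after DOX (difference 0.66, SE 0.17, adjusted p = 0.0636); its dimmer probe gave 0.13. It passed without BUCY treated replicate 3 (adjusted p = 0.0499) or BUCY untreated replicate 3 (adjusted p = 0.0457).

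In the IL1 family, 1 of 9 tested genes, IL1B2, was called after BUCY, where 17.3% of all genes were called. None was called after DOX (0.848% of all genes), where 1 had an unadjusted limma p under 0.05. IL1A, the other IL1 receptor agonist, had a log2 difference of 0.46 (SE 0.20, adjusted p = 0.11) for BUCY. IL18, a cytokine that caspase-1 also processes, had the smallest p after DOX (0.86, SE 0.25, adjusted p = 0.105; 0.0438 without BUCY treated replicate 3) and -0.55 (SE 0.27, adjusted p = 0.169) after BUCY. The difference between these was called (-1.41, SE 0.37, adjusted p = 0.0274; 5.89% of all genes, 3.15% higher and 2.73% lower), and was lost without BUCY untreated replicate 2 (adjusted p = 0.0546). CASP1 itself was lower in untreated BUCY than in untreated DOX piglets (-1.74, SE 0.21, adjusted p = 4.44e-06), and its BUCY and DOX differences, -0.24 (SE 0.22) and 0.04 (SE 0.20), did not pass.

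Of 15 genes of the NF-kB pathway and its early targets, NFKBIA alone was called after BUCY, where 17.3% of all genes were called. NFKBIA encodes IkB-alpha, the inhibitor that NF-kB itself induces; it was higher by a log2 difference of 0.89 (SE 0.26, adjusted p = 0.0246). Without replicates 2 and 3 it was 0.36 (adjusted p = 0.403), and under median centring 0.32 (adjusted p = 0.32). Leaving out treated replicate 2 or 3 or untreated replicate 2 or 3 alone also ended the call (adjusted p up to 0.0893). TNFAIP3 and ICAM1 had BUCY differences of 0.51 (SE 0.24, adjusted p = 0.14) and 0.63 (SE 0.26, adjusted p = 0.101). TNF and IL6, cytokines often measured beside IL1B, had 0.05 (SE 0.11) and 0.31 (SE 0.18), with adjusted p of 0.791 and 0.25. After DOX no gene of this list passed, 4 having an unadjusted limma p under 0.05; the smallest p was that of NOS2 (0.79, SE 0.34, adjusted p = 0.289), for which 3 of the 4 other probes passed the background filter and gave -0.02 to 0.45.

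Of 13 tested selectin and adhesion genes besides SELP, 2 were higher and 2 lower after BUCY (8.24% and 9.04% of all genes). None was called after DOX, where 1 had an unadjusted limma p under 0.05: ITGAL (-0.31, SE 0.11, adjusted p = 0.19). SELE, E-selectin of activated endothelium, lies near SELP in the annotation. It had a BUCY difference of 0.46 (SE 0.18, adjusted p = 0.0735) and a DOX difference of 0.05 (SE 0.16, adjusted p = 0.924). MADCAM1, the mucosal addressin that guides lymphocytes to the gut, was higher (1.01, SE 0.29, adjusted p = 0.0197), as was ST3GAL4, a sialyltransferase that builds selectin ligands (0.46, SE 0.14, adjusted p = 0.0247). ITGAL, the alpha chain of the leukocyte integrin LFA-1, was lower (-0.48, SE 0.12, adjusted p = 0.0112). None of the calls of MADCAM1, ST3GAL4 and ITGAL was kept without replicates 2 and 3, where MADCAM1 stood at 0.64 (adjusted p = 0.279), ST3GAL4 at 0.23 (adjusted p = 0.37) and ITGAL at -0.37 (adjusted p = 0.146). MADCAM1 and ST3GAL4 also lost the call without treated replicate 2 or 3 alone, MADCAM1 without untreated replicate 1 or 2 and ST3GAL4 without untreated replicate 3 (adjusted p up to 0.0685 and 0.092), and both lost it under median centring (adjusted p = 0.239 and 0.877).

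SELP is made in endothelium and megakaryocytes, so markers of both were read beside it. Over all genes, 17.3% were called after BUCY, 8.24% higher and 9.04% lower. Of 7 endothelial genes, PECAM1, the junction protein CD31, was higher after BUCY (1.27, SE 0.32, adjusted p = 0.01); its other probes gave 0.33 and 0.53, and it was not called without replicates 2 and 3 (0.64, adjusted p = 0.165). The mean log2 ratio of the 7 genes lay between 0.10 and 0.49 in BUCY treated piglets and between -0.29 and 0.50 in untreated ones, and CDH5 and VWF did not pass. Of 5 platelet genes, ITGA2B was lower after BUCY (-0.33, SE 0.09, adjusted p = 0.019; 0.0719 without treated replicate 2). Without replicates 2 and 3 together ITGA2B stood at -0.24 (adjusted p = 0.186). The platelet list lay between 0.20 and 0.53 in BUCY treated and 0.26 and 0.49 in untreated piglets, and PPBP and TUBB1, which define the lineage, were each well above background on 1 of 22 arrays. After DOX, where SELP was at its lowest, no gene of either list was called, and 1 of the 7 endothelial and 0 of the 5 platelet genes had an unadjusted limma p under 0.05; VWF had the smallest p among the endothelial genes (0.36, SE 0.14, adjusted p = 0.233) and P2RY12 among the platelet genes (-0.09, adjusted p = 0.616). The part of these cells in the SELP values was not tested.

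Of 17 tested neutrophil markers, 2 were higher and 1 lower after BUCY, where 17.3% of all genes were called. None was called after DOX, where 5 had an unadjusted limma p under 0.05. The median log2 difference of the list was 0.03 for BUCY and 0.08 for DOX. MMP9, a gelatinase of neutrophil granules also made by other cells, was higher after BUCY (1.26, SE 0.33, adjusted p = 0.0142) and had 0.93 (SE 0.31, adjusted p = 0.153) after DOX. The other MMP9 probe gave 1.21 for BUCY and 1.61 for DOX. With all probes of a gene averaged, the BUCY call of MMP9 was lost. BPI, a bactericidal protein of neutrophil granules, was higher after BUCY (0.92, SE 0.29, adjusted p = 0.0323), while its other probe gave 0.43. Without replicates 2 and 3 MMP9 stood at 1.62 (adjusted p = 0.0109) and BPI at 0.59 (adjusted p = 0.338); BPI was also lost without treated replicate 2 or 3 or untreated replicate 1, 3 or 5 alone (adjusted p up to 0.109). Under median centring neither was called (adjusted p = 0.23 and 0.276). The calgranulins S100A8, S100A9 and S100A12, abundant in neutrophils, had BUCY differences of 0.19 (SE 0.31), 0.10 (SE 0.12) and 0.25 (SE 0.25), none past the threshold, and were well above background on 13, 9 and 17 of 22 arrays. The mean log2 ratio of the 17 genes was -0.34 to 0.22 in BUCY treated and -0.45 to 0.07 in untreated piglets, highest in treated replicate 3, and -0.25 to 0.15 and -0.27 to -0.02 in the DOX groups. The granulocyte growth factor list gave no call; CSF2, the growth factor GM-CSF, had 0.50 (SE 0.13, adjusted p = 0.0699; 0.0318 without DOX treated replicate 1 and 0.0467 without BUCY treated replicate 3) for DOX and 0.26 (SE 0.14, adjusted p = 0.217) for BUCY.

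Of 11 monocyte and macrophage markers, CD163 and CD14 were higher after both drugs, while the median log2 difference of the list was -0.41 for BUCY and -0.21 for DOX. Over all genes, 8.24% were called higher after BUCY and 0.368% after DOX. CD163, the haemoglobin scavenger receptor of macrophages, was higher after DOX (1.31, SE 0.19, adjusted p = 0.000506) and after BUCY (1.44, SE 0.21, adjusted p = 0.000166). CD14, the co-receptor for bacterial lipopolysaccharide, was higher after DOX (1.26, SE 0.20, adjusted p = 0.00118) and BUCY (0.81, SE 0.21, adjusted p = 0.0138). Both BUCY calls were kept without replicates 2 and 3 (adjusted p = 0.00107 and 0.0489) and lost under median centring (adjusted p = 0.0783 and 0.182), as was the DOX call of CD163 (adjusted p = 0.159). AIF1 and TYROBP, also macrophage genes, were lower after BUCY (-0.54 and -0.64; adjusted p = 0.0438 and 0.0486) and lost the call under 21 and 24 of 36 alternatives, including most arrays left out singly (adjusted p up to 0.148 and 0.158). Without replicates 2 and 3 they stood at -0.44 and -0.37 (adjusted p = 0.249 and 0.463). Over the 11 genes the mean log2 ratio was -0.90 and -0.86 in BUCY treated replicates 3 and 2, where CXCL2 was highest, and -0.52 to 0.22 in the other 3. The part of macrophages in the CXCL2 and IL1B values was not tested.

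Among 22 other chemokines, 4 were lower and 2 higher after BUCY, where 9.04% of all genes were lower and 8.24% higher. CCL5, which attracts T cells, fell by 2.25 on the log2 scale (SE 0.26, adjusted p = 2.83e-05) and XCL1, made by cytotoxic lymphocytes, by 1.66 (SE 0.24, adjusted p = 0.000154). Both calls were kept without replicates 2 and 3; the dimmer CCL5 probe gave -1.11. CCL21, which draws lymphocytes and dendritic cells to lymphoid tissue, was lower after BUCY (-0.98, SE 0.24, adjusted p = 0.00895) and after DOX (-0.97, SE 0.22, adjusted p = 0.0376). The DOX call of CCL21 was lost without any of DOX treated replicates 1, 2, 3 and 6 or untreated replicates 1, 3, 5 and 6 (adjusted p up to 0.096). CXCL16 was lower after BUCY (-1.21, SE 0.33, adjusted p = 0.015). CCL19 and CCL28, named after their values were seen, were the higher genes (1.321 and 1.004; adjusted p = 0.0392 and 0.0474). None of the BUCY calls of CCL21, CXCL16, CCL19 and CCL28 was kept without replicates 2 and 3, where the log2 differences were -0.69, -0.61, 0.94 and 0.70 (adjusted p = 0.139, 0.119, 0.273 and 0.35). Of 10 epithelial markers, ANPEP, APOA1 and SLC5A1, an aminopeptidase, a lipoprotein and the glucose transporter of enterocytes, were lower after BUCY (-0.99, -1.88 and -1.48; adjusted p = 0.0175, 0.0184 and 0.041). None of these 3 was called without replicates 2 and 3 (adjusted p = 0.306, 0.312 and 0.585) or without either of them alone; untreated replicate 1 also decided ANPEP, and untreated replicates 1, 2, 4 and 5 decided SLC5A1 (adjusted p up to 0.0657 and 0.136). SLC10A2, the ileal bile acid transporter, was lower after DOX (-1.04, SE 0.22, adjusted p = 0.0219), a call lost without DOX treated replicate 3 or 6 or untreated replicate 2 or 6 (adjusted p up to 0.0719).

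**Figure D4:**
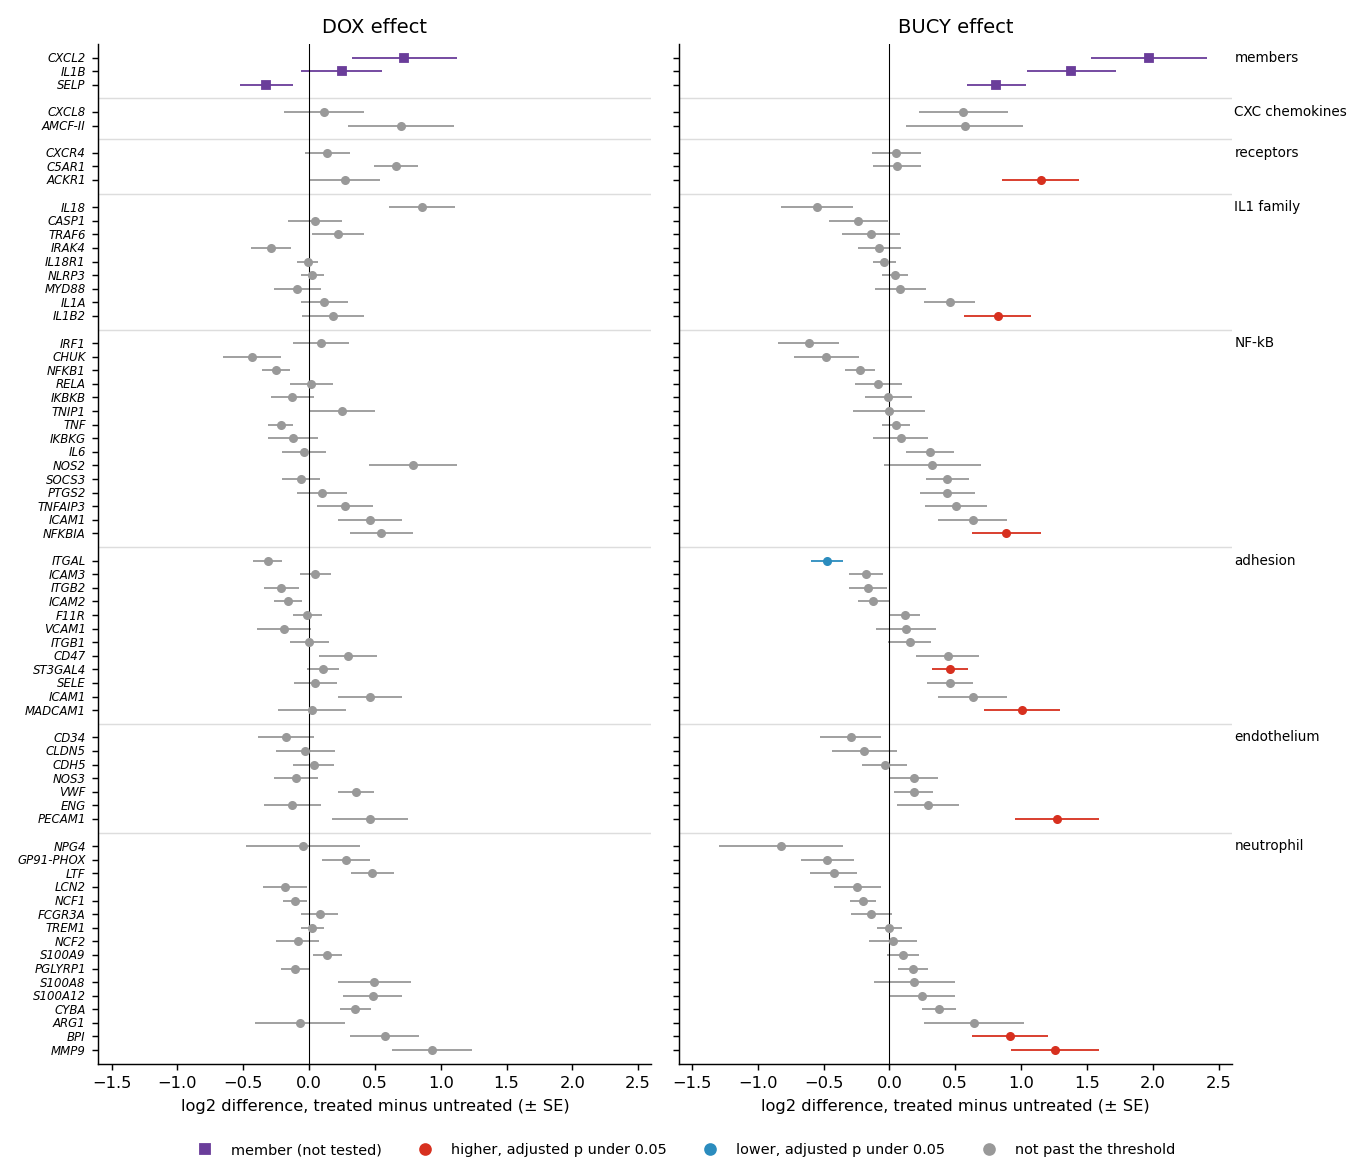
Log2 difference ± SE, treated minus untreated (x axis), for DOX (left) and BUCY (right), of the members (squares, not tested) and the tested genes of 7 lists, 1 gene left out (y axis); red and blue mark genes past a limma adjusted p of 0.05. The BUCY panel shows CXCL2 at 1.97 and IL1B at 1.38 to the right of all other genes drawn, and the DOX panel has no coloured point. The macrophage, other chemokine, epithelial, platelet and growth factor lists are not drawn. They hold CD163, at 1.44 for BUCY, and all list genes called after DOX (CD163, CD14, CCL21 and SLC10A2).

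The genes whose pattern over the 22 arrays was most like that of a member were taken from 2649 tested genes with a symbol, by Pearson's r. For CXCL2 they were SLC38A5 (0.90), NFKBIA (0.88), RIIAD1 (0.87), GRB10 (0.87) and MPI (0.86). For IL1B they were ALDOC (0.89), RTN2 (0.88), GAP43 (0.86), CAPN2 (0.84) and ARL3 (0.84). For SELP they were TIMP1 (0.84), THBS1 (0.81), PPP1CC (0.81), GRK7 (0.79) and SRPK3 (0.79). The sets of 5 shared no gene. Without BUCY treated replicates 2 and 3 the r of NFKBIA with CXCL2 was 0.80, that of GAP43 with IL1B 0.81 and that of TIMP1 with SELP 0.67, while CAPN2 dropped to 0.53. Over each set of 5, r then ran from 0.75 to 0.87 for CXCL2, 0.53 to 0.81 for IL1B and 0.55 to 0.71 for SELP. By rank, NFKBIA went from 2 to 33 and MPI from 5 to 100 for CXCL2, and CAPN2 from 4 to 134 for IL1B. GAP43 rose from 3 to 1 for IL1B. All arrays share the pool, and these values are descriptions.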

How the data were processed

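The deposited scanner files hold the median intensity of each spot and of its local background for Cy5 and Cy3 and, per the file headers, a log10 ratio of processed signals from Agilent Feature Extraction 10.7.3.1. The value table that the authors deposited gives Cy5 over Cy3 on a log2 scale; the submitters' processing notes name limma. Against normexp-corrected, loess- and quantile-normalised signals its columns had r from 0.9992 to 1 and slopes from 0.994 to 1.01, so log2 scale and direction were settled from the data.

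Median signals were background-corrected by normexp (offset 50) and normalised by loess within arrays (limma 3.58.1, R 4.3.3). Spots marked as outliers were dropped. RefSeq names (Sscrofa11.1) reached 6700 of 43603 probes, 15.4%. The brightest probe stood for each gene, and a gene was tested if 5 or more arrays had its Cy5 well above background. One limma model of the 4 groups (residual degrees of freedom 18, prior 3.38), checked on simulated data, was adjusted by Benjamini-Hochberg over 24760 genes, with 0.05 as threshold and two-sided tests. At an unadjusted p under 0.05 stood 3419 genes for DOX and 8000 for BUCY. The replicate is the piglet. The number of arrays limits the precision, and dye effects cancel within comparisons, since no array was swapped.

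The members and the 12 lists were chosen with earlier results of these data known. Named from each list were the called genes for each drug, at most 4 by smallest p, or the gene with the smallest p; for the other comparisons at most 3 called genes; and for each member the 5 most alike genes. The comparison genes SELE, IL1A, TNF, IL6, TNFAIP3, ICAM1, CDH5 and the calgranulins, and AMCF-II and CASP1 beyond the rule's comparisons, were named after their values were seen. One list gene is counted but not reported here. Genome sequence was not used here, so no promoter, protein or position is given. Alternatives changed the background correction, normalisation, probe filter and choice, slide or scan day as a block, and the arrays used. Python 3.11.15 with matplotlib 3.10.9 drew the figures.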

Additional observations from a re-analysis of the deposited data

Results flagged for a closer look

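SELP was marked because all 5 BUCY treated piglets lay above their untreated mean and all 6 DOX treated piglets below theirs. The difference of 1.14 on the log2 scale between the effects was not tested, since the gene was chosen for its values. Among the list genes, the difference between the drugs' effects passed limma's adjusted threshold for IL18 (-1.41, adjusted p = 0.0274), LTF, the lactoferrin of neutrophil granules and mucosa (-0.90, adjusted p = 0.03), CCL5 (-1.44, adjusted p = 0.0169), XCL1 (-1.24, adjusted p = 0.0247) and SLC10A2 (1.46, adjusted p = 0.0104); 5.89% of all genes passed. Of these, SLC10A2 alone was called without BUCY treated replicates 2 and 3. It lost the call under median centring and without the arrays whose titles carry a suffix (adjusted p up to 0.153). SLC10A2 was also lower in untreated BUCY than in untreated DOX piglets (-1.90, SE 0.23, adjusted p = 3.42e-06), where 25.2% of all genes were called. Of the 10 epithelial markers, 3 were higher and 3 lower there, among them APOA1 (1.84, adjusted p = 0.00979) and FABP6 (-2.21, adjusted p = 0.0181). APOA1 lost the call under median centring or slide as a fixed block, and FABP6 without the suffixed arrays (adjusted p up to 0.104 and 0.0664). Whether the gut segment differed between the experiments was not tested. Single arrays left out ended the call of LTF (5 arrays, adjusted p up to 0.0612), XCL1 (BUCY treated or untreated replicate 2, adjusted p up to 0.0545) and IL18 (BUCY untreated replicate 2, adjusted p = 0.0546).

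Single piglets stood far from the rest of their group in 5 of 108 groups examined, and chance marks about 1 in 20. Untreated BUCY replicate 5 had the highest ACKR1 (0.997) and CD14 (0.41) of its group and also the highest SELP (0.52). BUCY treated replicate 5 had the highest CD14 (1.36). Untreated DOX replicate 1 had the lowest ST3GAL4 (-0.44) and untreated DOX replicate 2 the highest SLC5A1 (-0.24).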

How the results depend on the processing

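The members' DOX and BUCY differences kept their sign in 36 of 36 alternatives for IL1B and SELP and 37 of 37 for CXCL2. Many of these alternatives could not move a difference, since leaving out an array of the other experiment returns the same value. The same holds for Aquantile scaling and for the fit of the 2 groups alone. The counts therefore overstate the number of separate checks. The untreated comparison of SELP turned to 0.02 without untreated BUCY replicate 4 and kept its sign in the other 35. The BUCY difference was 2.73 (CXCL2) and 1.96 (IL1B) with subtracted background, 2.80 and 2.01 with Agilent's log ratio, and 1.01 and 0.76 without BUCY treated replicates 2 and 3, where BUCY minus DOX fell to 0.28 and 0.51. SELP stood at 0.37 under median centring. Without the 6 arrays whose titles carry a suffix, IL1B gave 2.08 for BUCY and 1.73 for BUCY minus DOX.

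Called genes numbered 210 (DOX, 91 higher and 119 lower), 4277 (BUCY, 2039 and 2238), 1458 (BUCY minus DOX, 781 and 677) and 6241 (untreated, 3228 and 3013); in the lists 4 (DOX) and 24 (BUCY). Median centring gave 89 (27 and 62), 3242 (544 and 2698), 104 (38 and 66) and 3854 (1453 and 2401), and in the lists 2 and 19. Subtracted background gave 937 for BUCY minus DOX, and in the lists 2 higher and 1 lower for DOX. Slide as a fixed block, which takes out BUCY treated replicate 2 because it is alone on its slide, gave 349 (DOX), 2298 (BUCY) and 11 list genes (BUCY), and slide as a random block 355 (DOX). Fits of the 2 groups compared gave 745 (DOX) and 891 (BUCY), with 14 and 4 list genes. Without the suffixed arrays there were 1479 (BUCY), 332 (BUCY minus DOX) and 12 list genes (BUCY). Without BUCY treated replicates 2 and 3 there were 500 (DOX), 1125 (BUCY) and 732 (BUCY minus DOX), with 9 (DOX) and 6 (BUCY) list genes.

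Leaving out 1 array at a time gave 119 to 355 genes for DOX, 2280 to 6291 for BUCY, 939 to 2392 for BUCY minus DOX and 5247 to 6751 for the untreated groups, and 2 to 8 (DOX) and 11 to 30 (BUCY) list genes. The BUCY count was 2280 and 2542 without BUCY treated replicates 2 and 3 and 6291 without replicate 1. The DOX count was 119, 131, 131 and 133 without DOX treated replicates 3, 1, 2 and 6, 129 without DOX untreated replicate 1 and 355 without DOX treated replicate 4. Of 22 named BUCY calls 11 were kept without each array in turn, and 5 without BUCY treated replicates 2 and 3 together. Aquantile scaling leaves ratios as they are. No paired analysis was possible because the labels number no replicates, and the numbers used here only name piglets in accession order. The cause of these shifts was not tested.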
